A study of Mus musculus with 9 samples.

Results

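Among CD8+ T cells sorted from B16F10 tumours, 867 of 30026 cells with a T cell receptor beta chain carried at least 5 reads of Klra7 and 0 reads of Pdcd1. Klra7 encodes Ly49G2, an inhibitory receptor of the Ly49 family, and Pdcd1 encodes PD-1, so these cells are called Ly49+ PD-1 negative, or Ly49+ cells. They were chosen by these 2 read counts; Klra7 and Pdcd1 levels are therefore a description, while other genes, clone size and node listing did not enter the choice. They were set beside 12523 cells of the same tumours with 0 reads of both genes, called comparison cells. The tumours came from 3 female C57BL/6 mice aged 8 weeks, each inoculated under the skin with B16F10, a transplantable mouse melanoma line, and taken on day 14. The first mouse received the anti-CD4 antibody GK1.5, 200 µg into the peritoneum on days 5 and 9. Its cells filled 1 cartridge under sample tags 5 and 6, which are 1 mouse. The second cartridge held tag 1 and tag 2, from an untreated mouse and a mouse given the anti-PD-L1 antibody 10F.9G2 at that dose and on those days. The sources used here do not say which tag was which, so these mice are called the tag 1 mouse and the tag 2 mouse, and treatment and mouse cannot be told apart. Sorted cells were negative for an intravenous antibody given 3 minutes before death, negative for CD11b, B220, NK1.1 and Ter119, and TCRbeta+ CD4- CD8+, at over 95% purity. NK cells that carry NK1.1 were therefore gated out, while expression of Ly49 proteins was not part of the gate. Splenic T cells from Pmel-1 receptor-transgenic animals had been added to the sorted cells and serve as a second source of CD8+ cells. CD8+ T cells of each mouse's tumour-draining lymph node, CD44high per the series' design text for the anti-CD4 mouse, were read by bulk sequencing of beta chains.

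Ly49 receptors bind MHC class I molecules, and NK cells use most of them as brakes. In CD8+ T cells they are known from memory-like cells that arise without antigen under interleukin-15, called virtual memory cells, and from a small CD8+ subset described as regulatory, which is known for the transcription factor Helios (Ikzf2). PD-1 rises on T cells after stimulation of the antigen receptor, and tumour-reactive CD8+ cells usually carry it. A T cell clone is a group of cells with 1 rearranged receptor, and its size in a sample reflects how far its founder has divided.

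Klra7 lies at chr6:130218605-130233322 of GRCm38 (RefSeq), within the Ly49 cluster. In the Ly49+ cells the median was 111 Klra7 reads in the anti-CD4 mouse, 71 in the tag 1 mouse and 93 in the tag 2 mouse, far above the threshold of 5. At its edge, 4, 5 and 11 cells had exactly 5 reads, and 1, 2 and 14 cells without Pdcd1 reads had 4. Another 8, 3 and 19 cells missed the class by a single Pdcd1 read. The other marker genes given with the rule followed Klra7, with 1 exception, and the reads of this family are uncertain between genes because its members are near-identical copies. Klra13-ps, a transcribed pseudogene, stood at 1472, 739.7 and 3015 CPM (counts scaled to the TMM-adjusted total of each sum) in the Ly49+ cells of the anti-CD4, tag 1 and tag 2 mice, against 119, 62.1 and 247 in the comparison cells. Klra4 stood at 75.7, 13.6 and 209 CPM against 11.5, 4.31 and 21.3. Klra5 was higher in the tag 1 mouse (166 against 23.2 CPM) and the tag 2 mouse (367 against 40.6 CPM), but stood at 8.58 against 13.9 CPM in the anti-CD4 mouse. Klra4 and Klra13-ps were thus higher in 3 mice and Klra5 in 2. Klra7 itself is the rule and says nothing of the label, and the other 3 may share its reads.

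Ly49 genes outside the rule were carried by the same cells. Klra1, which encodes Ly49A, stood at 3191, 1024 and 1653 CPM against 41.0, 28.3 and 87.9. Klra6 stood at 854, 1092 and 1869 CPM against 16.1, 24.7 and 77.4. Klra3, which encodes Ly49C, stood at 429, 622 and 517 CPM against 72.5, 58.4 and 89.2, and Klra9, which encodes Ly49I, at 184, 143 and 196 against 7.25, 5.06 and 8.24. All 11 Ly49 genes beside Klra7 were then counted together, with Klra4, Klra5 and Klra13-ps of the rule and other pseudogenes among them. A read of at least 1 of them was found in 88.2%, 65.6% and 77.9% of the Ly49+ cells and in 7.99%, 7.56% and 8.72% of the comparison cells. Reads of 3 or more of the 11 were found in 24.2%, 11.7% and 23.4% against 0.681%, 0.523% and 0.985%. Since copies may share reads, these levels are a description and were not tested.

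**Figure D1:**
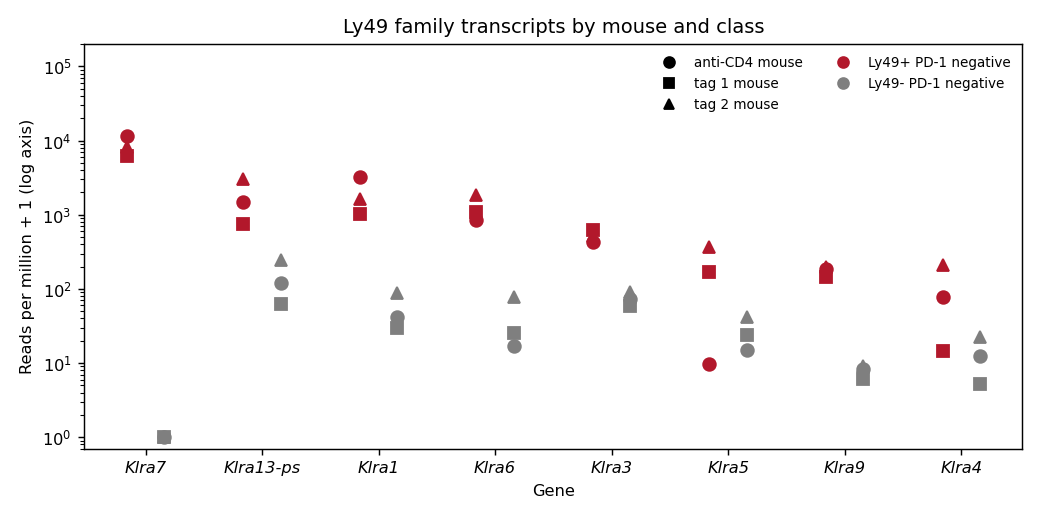
Level of 8 Ly49 genes in CPM plus 1 (vertical log axis), summed over the cells of each class, with 1 symbol per mouse. Red symbols (Ly49+ cells) lie above grey ones (comparison cells) in each mouse, except Klra5 in the anti-CD4 mouse, at 8.58 against 13.9; Klra7 is 0 in the comparison cells by the rule.

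The share of tumour cells in the class differed between the mice. It was 1.31% in the anti-CD4 mouse (161 of 12304; exact Clopper-Pearson 95% interval 1.115% to 1.53%), 2.54% in the tag 1 mouse (163 of 6412; 2.17% to 2.96%) and 4.80% in the tag 2 mouse (543 of 11310; 4.41% to 5.21%). Tags 5 and 6 of the anti-CD4 mouse gave 1.25% and 1.37%. Intervals here and below cover counting error alone, and with 1 mouse per treatment the differences have no replicate. Among cells without a Pdcd1 read the order changed, to 8.97%, 3.67% and 7.29%. Among cells with a Pdcd1 read, Klra7 reached 5 reads in 0.666% (70 of 10510), 2.74% (54 of 1971) and 3.29% (127 of 3861). In the largest clone of each tumour, whatever its Pdcd1 reads, 3 of 2132, 14 of 1485 and 10 of 450 cells reached 5 reads of Klra7 (0.141%, 0.943% and 2.22%), and in Pmel-1 cells 2.33% (20 of 860) met the rule.

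Most Ly49+ cells were the sole sampled cell of their clone. Clones of 1 cell held 98.1% of them in the anti-CD4 mouse (158 of 161), 81.0% in the tag 1 mouse (132 of 163) and 92.1% in the tag 2 mouse (500 of 543). In the comparison cells those shares were 32.3% (522 of 1615), 26.5% (1117 of 4208) and 85.0% (5692 of 6700). The share was higher in the Ly49+ cells of 3 of 3 mice, by 42.5 percentage points on average, but the mice differed widely. An exact two-sided sign-flip permutation test over 3 mice gave p = 0.25, the smallest value it allows. Counted over clones instead of cells, the mean difference was 12.0 points, and in 1 mouse it was below 0, at -1.18. Clones of 10 or more cells held 1.86%, 12.3% and 2.58% of the Ly49+ cells and 52.1%, 60.6% and 8.28% of the comparison cells.

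Draining lymph nodes rarely listed the clones of Ly49+ cells. In the anti-CD4 mouse 3.11% of the Ly49+ cells (5 of 161; 1.02% to 7.10%) and 67.1% of the comparison cells belonged to clones listed in its node. For the tag 1 and tag 2 mice a clone was counted when either node of their cartridge listed it, because the titles and treatment labels of those nodes contradict each other. The share was then 17.2% (28 of 163) against 60.8% in the tag 1 mouse and 7.18% (39 of 543) against 12.5% in the tag 2 mouse. It was lower in the Ly49+ cells of 3 of 3 mice, by 37.7 percentage points on average, and the exact two-sided sign-flip test again gave p = 0.25, the smallest value possible. By single nodes, 14.7% of the tag 1 Ly49+ cells matched the node titled control and 2.45% the node titled anti-PD-L1, while for tag 2 these were 1.84% and 5.52%. Nodes of other mice were searched in the same way. For Ly49+ cells of the anti-CD4 mouse, 0.621% matched the node titled control and 1.24% the node titled anti-PD-L1. The anti-CD4 node listed those of 4.91% of the Ly49+ cells and 26.4% of the comparison cells of the tag 1 mouse, and of 3.31% and 2.07% of the tag 2 mouse. Of the 8 such tag 1 Ly49+ cells, 7 belonged to its largest clone, whose sequence is given further on.

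In both classes of each mouse, cells in clones of 2 or more cells were listed more often than those in clones of 1 cell. The gap between the classes at a given clone size differed between mice. Counted over clones, 3.11%, 11.2% and 6.38% of those with Ly49+ cells and 40.7%, 14.8% and 5.36% of those with comparison cells were listed. Among clones of 1 cell, 1.27% of the Ly49+ cells and 23.9% of the comparison cells of the anti-CD4 mouse were listed. In the tag 1 mouse those shares were 4.55% and 7.79%, and in the tag 2 mouse 3.80% and 3.57%. In clones of 2 or more cells, 3 of 3 Ly49+ cells and 87.7% of the comparison cells of the anti-CD4 mouse were listed. Those shares were 71.0% (22 of 31) and 79.9% in the tag 1 mouse, and 46.5% (20 of 43) and 63.0% in the tag 2 mouse, a wider gap than over all its cells. The mean over mice, -4.40 points, joins opposite signs and rests in the anti-CD4 mouse on 3 cells. Clones under 10 reads were not listed. The nodes differed in size. The anti-CD4 node listed 29791 clones with 1259463 reads, the node titled control 11868 with 326019, and the node titled anti-PD-L1 13373 with 350459. The part of node size in the differences between mice was not tested. The clones found had a median of 70, 37 and 26 reads in the node for Ly49+ cells and 187, 38 and 30 for comparison cells.

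**Figure D2:**
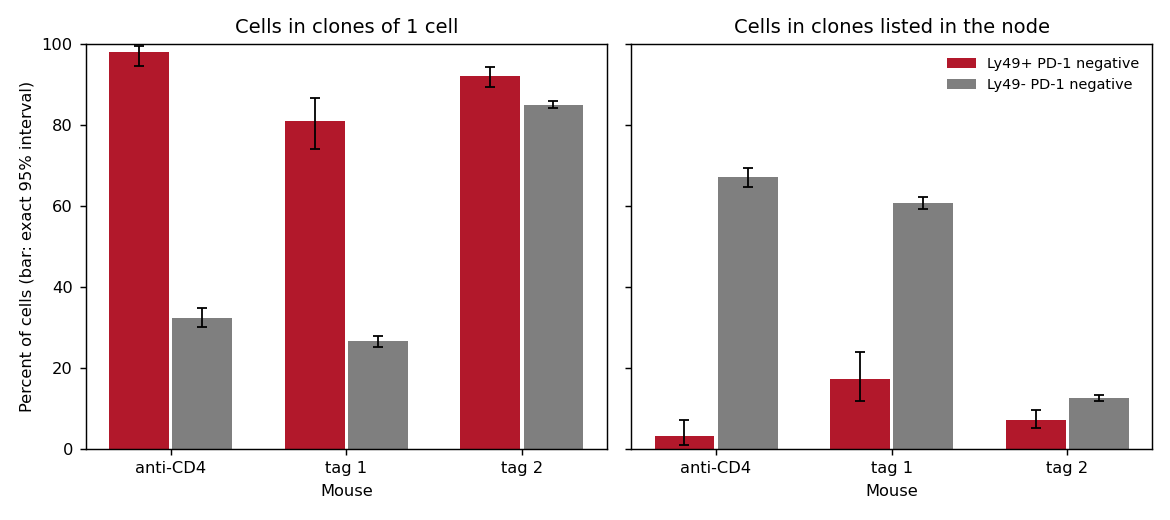
Percent of Ly49+ cells (red) and comparison cells (grey) in clones of 1 cell (left) and in clones listed in the draining node (right), by mouse, with exact 95% intervals of counting. Red bars are at 81.0% or more on the left and at 17.2% or less on the right; the grey bars of the tag 2 mouse lie nearer to the red ones than in the other 2 mice.

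Sisters of Ly49+ cells were counted as well. In clones of 2 to 9 cells, 7 of 25 pairs of a Ly49+ cell with another cell of its clone in the tag 1 mouse (28.0%) and 14 of 32 in the tag 2 mouse (43.8%) had a sister with at least 5 Klra7 reads. Pairs were counted from each Ly49+ cell, so a clone made up of 2 Ly49+ cells gave 2 pairs. These pairs are not independent, and Klra7 is the gene of the rule. All cells of clones of 2 to 9 cells reached 5 reads in 2.93% and 4.21%. The anti-CD4 mouse had no Ly49+ cell in such a clone. Of all clones, 4 in the tag 1 mouse and 8 in the tag 2 mouse held at least 2 Ly49+ cells, and 8 of these 12 had 2 or 3 cells in all.

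The beta chain CDR3 sequences of the 7 clones made up entirely of 2 Ly49+ cells are shown because they are the clones in which both sampled cells carried Klra7. Each runs 5′ to 3′, from the conserved cysteine to the conserved phenylalanine codon. Lower case marks bases shared with the consensus of other clones of that V or J gene, and capitals the bases between.
tag 1, TRBV23 and TRBJ2-2: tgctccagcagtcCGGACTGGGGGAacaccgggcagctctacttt
tag 2, TRBV1 and TRBJ2-7: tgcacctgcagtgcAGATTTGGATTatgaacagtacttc
tag 2, TRBV13-3 and TRBJ2-1: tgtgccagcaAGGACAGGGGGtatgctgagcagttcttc
tag 2, TRBV13-3 and TRBJ2-4: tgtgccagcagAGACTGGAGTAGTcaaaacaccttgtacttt
tag 2, TRBV5 and TRBJ2-3: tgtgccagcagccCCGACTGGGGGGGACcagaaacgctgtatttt
tag 2, TRBV12-2 and TRBJ2-7: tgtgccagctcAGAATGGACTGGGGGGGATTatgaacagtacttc
tag 2, TRBV12-2 and TRBJ1-2: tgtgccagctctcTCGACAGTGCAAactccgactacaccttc

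No V and J pair recurred among them. The tag 1 clone was listed in the node titled control with 39 reads, the last clone in the node titled anti-PD-L1 with 26 and in the anti-CD4 node with 32, and the other 5 in none of the 3 nodes. At the other end stood the largest clone of the tag 1 mouse, of 1485 cells, with 7 Ly49+ cells, 14 cells of at least 5 Klra7 reads and 407 cells with a Pdcd1 read. Between V and J it had 6 bases, against 11 to 20 in the 7 clones above. Other large clones went both ways. A tag 1 clone of 919 cells with 4 Ly49+ cells (TRBV4 and TRBJ2-3) had 16, and a tag 2 clone of 180 cells with 4 (TRBV29 and TRBJ2-7) had 5. The CDR3 of the largest tag 1 clone is shown as 1 example:
tag 1, TRBV12-1 and TRBJ2-5: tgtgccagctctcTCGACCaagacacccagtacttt
This clone had 419 reads in the node titled control. It was also found in 54 cells under tag 2, including 2 Ly49+ cells, and had 304 reads in the anti-CD4 node. Whether those cells were tagged wrongly was not tested.

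Receptors of the Ly49+ cells were otherwise diverse. They came from 161, 152 and 533 clones, of which the tag 1 and tag 2 mice shared 2 and the anti-CD4 mouse shared none with either. No clone with an alpha chain (144, 108 and 394) used TRAV11 with TRAJ18, the pair of invariant NKT cells, or TRAV1 with TRAJ33, that of MAIT cells. Of 24 beta V genes, 2 had a higher share of clones in the Ly49+ cells of all 3 mice and 4 a lower one. Those counts were 3 and 3 of 12 beta J genes and 7 and 11 of 92 alpha V genes. In each group, most genes thus did not keep 1 sign or kept it in both directions. For beta V, 1 gene of each direction is given. TRBV12-2 was used by 9.32%, 13.2% and 10.5% of Ly49+ clones and by 6.53%, 6.78% and 6.26% of comparison clones. TRBV19 was used by 7.45%, 5.92% and 3.94% against 9.79%, 7.20% and 7.28%. CDR3 length hardly differed, at a mean of 42.5, 41.9 and 42.1 bases against 41.8, 41.6 and 41.5. A tryptophan codon inside the CDR3, counted after the sequences above had been seen, was present in 19.3%, 22.4% and 24.4% of Ly49+ clones and in 17.1%, 16.4% and 15.5% of comparison clones. These shares were not tested over mice.

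Of the genes set beside the comparison cells, 1 passed the test, Gzmb, which was lower. Fcer1g and Ikzf2 were higher and Cd8a, Cd8b1 and Gzmk lower in the Ly49+ cells of 3 of 3 mice without passing, and Gzma and Gzmm differed in sign between mice. Reads were summed per mouse and class and tested in edgeR by quasi-likelihood, blocking on mouse. Of 601 genes tested, leaving out Pdcd1 and the Ly49 genes, 0 were higher (0%) and 1 was lower (0.166%) at a Benjamini-Hochberg adjusted p below 0.05. At an unadjusted p below 0.05, 17 were higher (2.83%) and 55 lower (9.15%), and over all genes tested the median log2 difference was -0.13. The count of called genes depended on the mice used. Leaving out the anti-CD4 mouse gave 9 genes higher and 41 lower, and leaving out the tag 1 or the tag 2 mouse gave 0. DESeq2 called 13 and 57.

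**Figure D3:**
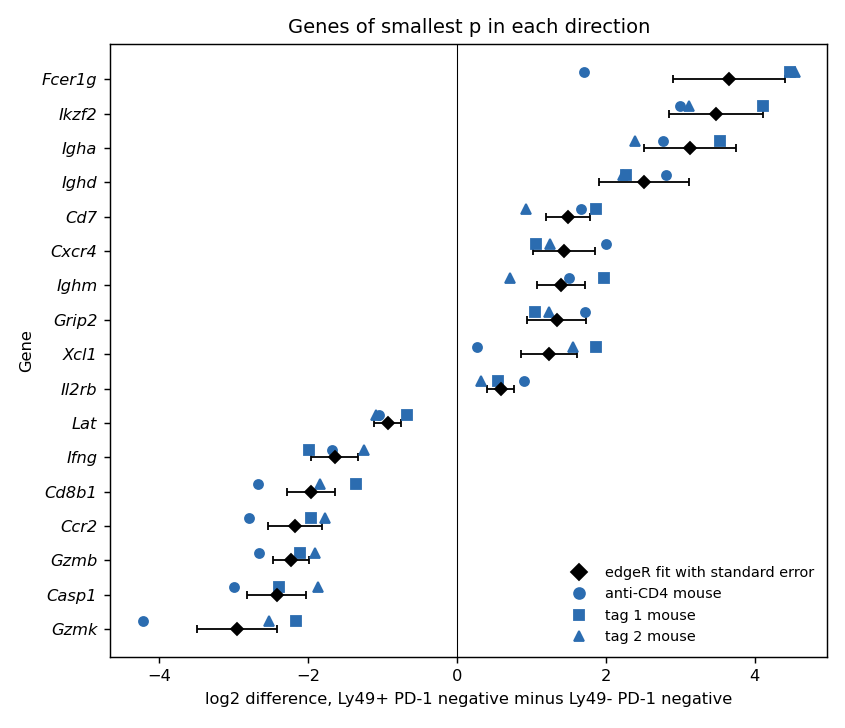
log2 difference between Ly49+ and comparison cells for the 10 genes of smallest p above 0 and 7 of those below 0, with the edgeR estimate and its standard error (black) and the value of each mouse (blue). Gzmb, at -2.22, passed the test at an adjusted p below 0.05, and the other genes did not; Foxp3, Ly86 and Ccl2, near 0 in the Ly49+ cells, are not drawn.

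Gzmb, which encodes the cytotoxic protease granzyme B, was the gene that fell. It stood at 3691, 1768 and 591 CPM in the Ly49+ cells of the anti-CD4, tag 1 and tag 2 mice and at 23149, 7613 and 2217 CPM in the comparison cells. Each mouse showed the lower level in its Ly49+ cells, although the classes overlapped across mice. The log2 difference was -2.22 (SE 0.24, edgeR adjusted p = 0.037). It kept its sign in 20 of 20 other settings and passed in 12, with edgeR, DESeq2 or limma adjusted p between 3.4e-14 and 0.35; without the tag 1 or tag 2 mouse it did not pass. Cells with a Gzmb read made up 37.3%, 24.5% and 17.3% of the Ly49+ cells and 68.2%, 51.3% and 18.9% of the comparison cells, so in the tag 2 mouse the shares were close while the CPM differed.

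Fcer1g encodes the Fc receptor gamma chain, an adaptor of NK cell receptors that conventional CD8+ T cells mostly lack. It stood at 4655, 1440 and 2887 CPM in the Ly49+ cells and at 1419, 63.6 and 123 CPM in the comparison cells. The lowest Ly49+ value lay just above the highest comparison value. The log2 difference was 3.65 (SE 0.75, edgeR adjusted p = 0.12), so it did not pass, while 9 of 20 other settings called it. Of the Ly49+ cells 52.2%, 31.9% and 42.2% had a read, against 5.20%, 1.996% and 2.39% of the comparison cells and 3.72% of Pmel-1 cells. Thinning each cell to 4000 reads gave 51.6%, 30.7% and 38.9% against 4.71%, 1.40% and 2.07%. Myeloid cells also carry Fcer1g. The 9 macrophage and monocyte markers measured summed to 569, 692 and 195 CPM in the Ly49+ cells and to 21319, 1618 and 483 CPM in the comparison cells, and Lyz2 reads were found in 1.24%, 0.613% and 0.737% of the Ly49+ cells.

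Ikzf2, which encodes Helios, stood at 169, 204 and 204 CPM in the Ly49+ cells and at 20.3, 10.9 and 22.7 CPM in the comparison cells. These levels did not overlap, and the log2 difference was 3.48 (SE 0.63, edgeR adjusted p = 0.10), which did not pass. Reads were found in 15.5%, 17.2% and 19.9% of the Ly49+ cells and 3.10%, 1.97% and 2.33% of the comparison cells. Most Ly49+ cells thus had no Ikzf2 read. The regulatory Ly49+ CD8 list, in which Ikzf2 stands, had no called gene above 0. Of 14 genes tested in it 6 had a positive difference, Gzmb was called lower, and the median log2 difference was -0.58. Icos stood at 1027, 1938 and 1030 CPM against 4289, 3517 and 1653, and Cd5, a surface protein that dampens receptor signals, at 1525, 1154 and 676 CPM against 3320, 2349 and 990. Foxp3, the regulatory T cell factor, was found in 0 of 867 Ly49+ cells. With 3 cells taken as the limit of a count of 0, shares with a read of up to 1.86%, 1.84% and 0.552% by mouse remain possible. This sets no limit on cells that express it. In comparison cells the shares were 4.64%, 0.0475% and 0.0896%. Those of the tag 1 and tag 2 mice lie below the limits, so the count of 0 shows no difference there.

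Transcripts of the CD8 coreceptor were low, and those of its beta chain most of all. Cd8b1 stood at 1988, 3838 and 3054 CPM in the Ly49+ cells and at 12672, 9804 and 10923 CPM in the comparison cells, without overlap. The log2 difference was -1.95 (SE 0.32, edgeR adjusted p = 0.10), short of the threshold, and 9 of 20 other settings called it. Cd8a stood at 7114, 4294 and 5370 CPM against 16666, 6817 and 8895, a log2 difference of -0.87 (SE 0.21, edgeR adjusted p = 0.17). By cells, 39.8%, 19.02% and 28.0% of the Ly49+ cells had Cd8a reads without Cd8b1 reads, against 3.03%, 5.25% and 7.87% of the comparison cells. Reads of neither chain were found in 16.8%, 23.9% and 21.4% against 1.30%, 3.94% and 5.75%. The sort had required CD8 protein, so a cell without a read is not shown to lack the protein. Receptor constant region genes were found in nearly all cells. Trac reads were in 100%, 97.5% and 98.2% of the Ly49+ cells and Trbc2 reads in 100%, 97.5% and 99.6%. The gamma delta gene Trdc had reads in 0.621%, 1.84% and 1.84%. In the CD8 T cell identity list, 5 of 14 genes had a positive difference, none was called and the median log2 difference was -0.33.

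**Figure D4:**
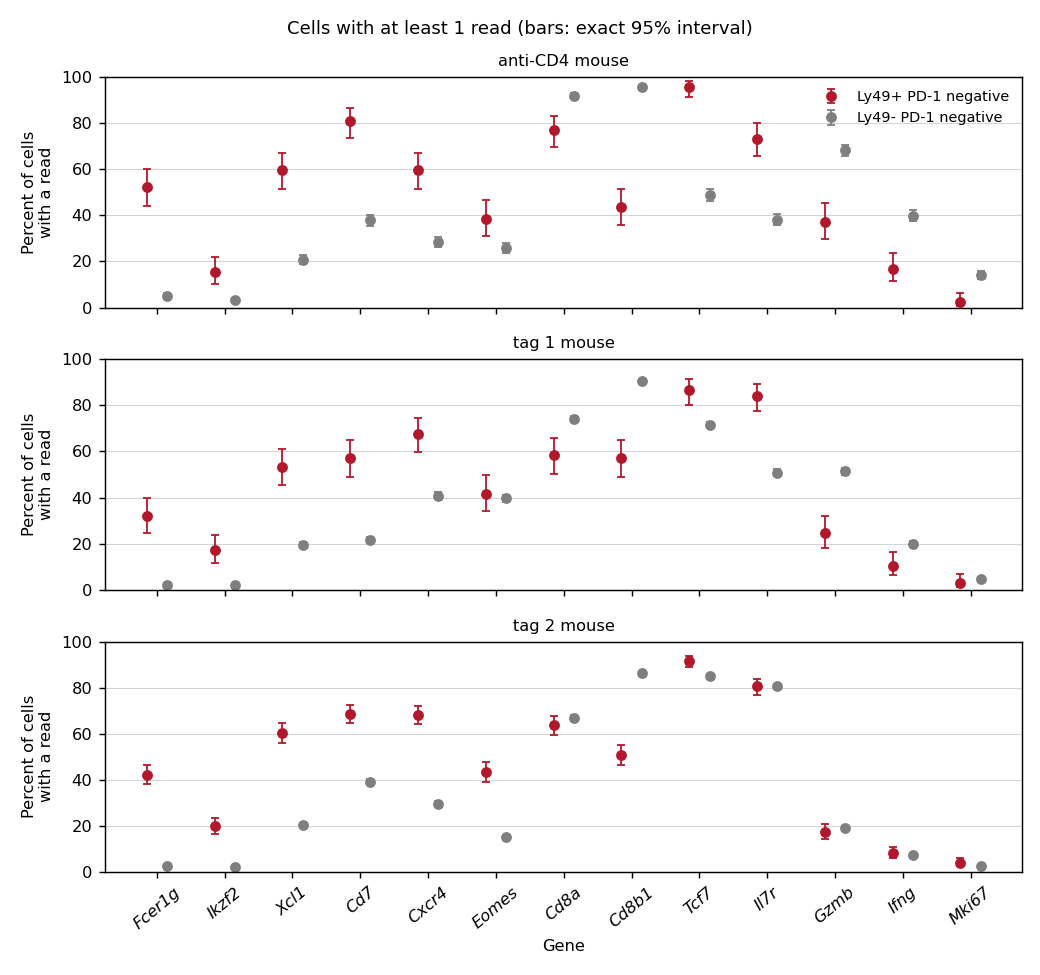
Percent of cells with at least 1 read of 13 genes in Ly49+ cells (red) and comparison cells (grey) of each mouse, with exact 95% intervals. Fcer1g, Ikzf2, Xcl1, Cd7 and Cxcr4 lie higher and Cd8b1 lower in the Ly49+ cells of 3 mice, while Il7r lies higher in 2 mice and is level in the tag 2 mouse, at 80.5% and 80.6%.

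Genes of the virtual memory and interleukin-15 list were mixed, with 11 of 18 above 0, none called and a median log2 difference of 0.07. At an unadjusted p below 0.05, 4 of the 18 were higher and 0 lower, against the 2.83% and 9.15% of all genes. Il2rb, the receptor chain shared by interleukin-2 and interleukin-15, stood at 38061, 19656 and 27798 CPM against 20373, 13435 and 22174, a log2 difference of 0.59 (SE 0.18, edgeR adjusted p = 0.23). Cd7, an immunoglobulin superfamily receptor of T and NK cells, stood at 7431, 2364 and 3501 CPM against 2344, 645 and 1841. Xcl1, a chemokine that attracts cross-presenting dendritic cells, stood at 8967, 7644 and 9776 CPM against 7421, 2090 and 3307. Each of the 3 was higher in the Ly49+ cells of every mouse and none passed. Eomes, a transcription factor of memory and NK cells, stood at 2444, 2243 and 2299 CPM, a narrow range, while the comparison cells held 1229, 1990 and 887. Cd44 stood at 848, 1121 and 1513 CPM against 687, 1345 and 672, and its sign differed between mice. Ccl5 differed in sign too, at 85088, 112212 and 104748 CPM against 99616, 164897 and 46907.

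Naive and central memory genes depended on the mouse. Tcf7, a transcription factor of naive and memory cells, stood at 4696, 3941 and 5216 CPM in the Ly49+ cells and at 1794, 2952 and 5562 in the comparison cells. Il7r stood at 9519, 11860 and 11256 CPM against 3467, 5981 and 14980. In the anti-CD4 and tag 1 mice both genes were higher in the Ly49+ cells, and in the tag 2 mouse, where 85.0% of comparison cells were in clones of 1 cell, both were lower. Ccr7, a node homing receptor, stood at 6493, 3023 and 3439 CPM against 5419, 3338 and 12625. Lef1 stood at 37.9, 189 and 187 CPM against 33.6, 150 and 402. In the list, 8 of 11 genes had a positive difference and none was called. Its median by mouse was 1.39, 0.65 and -0.40 on the log2 scale.

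Several effector and checkpoint genes stood lower in the Ly49+ cells of each mouse, while the signs of the checkpoint list as a whole were split as those of all genes were. Gzmk, a granzyme of effector memory cells, stood at 135, 764 and 103 CPM in the Ly49+ cells and at 2523, 3411 and 594 in the comparison cells (log2 difference -2.95, SE 0.53, edgeR adjusted p = 0.10). Ifng, which encodes interferon gamma, stood at 979, 303 and 251 CPM against 3132, 1204 and 599. Klrg1, an inhibitory receptor of effector cells, stood at 438, 385 and 29.5 CPM against 1341, 1135 and 136. All 3 were lower in 3 of 3 mice, and none passed. Ctla4 stood at 2018, 1120 and 595 CPM against 14540, 2077 and 2651, and Havcr2, the gene of the checkpoint receptor TIM-3, at 279, 20.6 and 41.2 CPM against 1154, 546 and 157. Of 20 checkpoint and exhaustion genes tested, 11 had a negative difference, beside 337 of all 601, and none was called. At an unadjusted p below 0.05, 8 of the 20 were lower and 0 higher, against 9.15% and 2.83% of all genes, and the median log2 difference was -0.54. Among the 9 genes above 0 were Tnfrsf1b, at 7574, 12097 and 10800 CPM against 5689, 9766 and 7868, and Tnfrsf18, at 4422, 2274 and 2726 against 3943, 1685 and 2470, although both signs turned when no low-count filter was used, and that of Tnfrsf18 also without the Pdcd1 condition. In the cytotoxic list 8 of 11 genes were below 0, Gzmb was called lower and the median was -0.34. Ctsw, a protease of cytotoxic cells, stood at 11409, 9517 and 13309 CPM against 8609, 10314 and 9601.

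Chemokine receptors split. Cxcr4, a receptor for a marrow and stromal chemokine, stood at 858, 578 and 572 CPM against 214, 276 and 241. Ccr2, a receptor for inflammatory chemokines, stood at 425, 374 and 108 CPM against 2933, 1459 and 372. Cxcr6, a receptor typical of tissue-resident cells, stood at 301, 913 and 387 CPM against 3912, 2166 and 690. None of these passed the test, although Cxcr4 was higher and Ccr2 and Cxcr6 lower in 3 of 3 mice. Casp1, the inflammasome protease, stood at 216, 269 and 124 CPM against 1718, 1411 and 457, and Lat, an adaptor of the T cell receptor, at 10159, 9454 and 7922 against 20923, 14979 and 16770.

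Mki67, a gene of dividing cells, was rarely read in the Ly49+ cells. Its reads were found in 2.48%, 3.07% and 3.87% of them, against 14.0%, 4.73% and 2.52% of the comparison cells. The 6 proliferation genes tested were all below 0, with a median log2 difference of -1.44, and none was called. The medians by mouse, -3.06, -1.13 and -0.19, show that the anti-CD4 mouse held the widest gap. Interferon response genes gave 4 of 13 above 0, none called and a median of -0.65. Irf7 stood at 4635, 2546 and 2479 CPM against 3316, 2730 and 2790. Other lists had no called gene either. NK-type receptors and adaptors gave 7 of 10 above 0 (median log2 difference 0.33), T cell receptor signal genes 8 of 15 (0.04) and interleukin receptors 6 of 13 (-0.14). Cytokines and chemokines gave 6 of 14 above 0 (-0.48), chemokine and homing receptors 5 of 16 (-0.47) and tissue residency genes 2 of 6 (-1.09). At an unadjusted p below 0.05, 2 genes of the regulatory Ly49+ CD8 list were higher and 6 lower of 14, and 2 of the NK-type list higher and 1 lower of 10. The CD8 T cell identity list had 0 higher and 4 lower of 14, and cytokines and chemokines 1 and 4 of 14.

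Transcripts of immunoglobulin heavy chain constant regions stood higher in 3 of 3 mice, none past the test, while the B cell gene Cd79a was near 0. Ighm stood at 5713, 3635 and 4280 CPM in the Ly49+ cells and at 2015, 927 and 2608 in the comparison cells. Ighd stood at 62.6, 108 and 227 CPM against 8.05, 21.7 and 47.5, and Igha at 16.7, 256 and 283 against 1.60, 21.1 and 53.1. Their edgeR adjusted p was 0.17, 0.17 and 0.12. Igkc, the constant gene of the kappa light chain, went the other way, at 2.52, 187 and 40.3 CPM against 277, 772 and 115. It did not pass either (edgeR adjusted p = 0.40). The B cell gene Cd79b differed in sign between mice, at 126, 57.6 and 143 CPM against 252, 46.7 and 119. Of 6 genes tested in the B cell list, 4 had a positive difference and none was called. The median log2 difference was 1.28, in a range from -3.05 to 3.50, and by mouse -0.16, 0.66 and 1.55. At an unadjusted p below 0.05, 2 of the 6 were higher and 0 lower, against 2.83% and 9.15% of all genes. Cd79a reads were found in 0, 0 and 0.184% of the Ly49+ cells, and Ighm reads also in 50.7% of Pmel-1 cells. Grip2, a scaffold protein gene, stood at 239, 778 and 758 CPM against 71.9, 374 and 321.

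The classes differed in depth and in markers of other cell types. Median reads per cell were 11940, 15534 and 16438 in the Ly49+ cells and 14713, 16052 and 10386 in the comparison cells. Of the 8 NK markers in the tables, which lack Ncr1 and Tyrobp, none was at 0, and Fcer1g and Eomes are among them. They summed to 8778, 5334 and 7434 CPM against 4098, 3131 and 3453. By gene, 5 of the 8 had a positive log2 difference and 3 a negative one, and none was called. Fcgr3, an Fc receptor gene among them, stood at 277, 1.21 and 48.4 CPM against 958, 29.0 and 33.2. The 7 dendritic cell markers summed to 515, 163 and 713 CPM against 15966, 1662 and 430, and the 5 CD4 and regulatory T cell markers to 2337, 1388 and 868 against 16579, 2238 and 2750, with Cd4 and Foxp3 at 0 in the Ly49+ cells. The 4 gamma delta markers summed to 20.7, 54.2 and 249 CPM against 164, 44.9 and 165, with 3 of the 4 at 0 in the Ly49+ cells, and the 8 B cell markers to 5923, 4221 and 4993 against 2631, 1811 and 2917, mostly Ighm. The macrophage, dendritic and CD4 sums were highest in the comparison cells of the anti-CD4 mouse. There Ccl2, a monocyte chemokine, stood at 974 CPM and Ly86 at 404, and in the Ly49+ cells of that mouse at 11.1 and 0. Without cells holding a Lyz2 or Cd79a read, 3 genes were called higher (Fcer1g, Ikzf2 and Lyn, the last named after its value was seen) and 14 lower, and without cells holding a Trdc read none was called. With every cell thinned to 4000 reads, Fcer1g, Ikzf2 and Lyn were called higher and Gzmb, Cd8b1, Ctla4, Gzmk and Casp1 lower. Beyond these settings the part of depth and of other cells in the differences was not tested. Shares of cells with a read are unthinned except where thinning is named. The leading beta chain took over 0.9 of the beta reads in 90.7%, 84.0% and 89.1% of the Ly49+ cells and in 89.7%, 91.8% and 90.7% of the comparison cells. No doublet caller was run.

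Within the Ly49+ class, Fcer1g marked cells with less Cd8b1. Cd8b1 reads were found in 38.1%, 40.4% and 44.5% of the cells with an Fcer1g read and in 49.4%, 64.9% and 55.1% of those without. The cells with an Fcer1g read were the deeper ones, at a median of 12852.5, 16781.5 and 17121 reads against 11165, 14019 and 15768. Xcl1 reads were more frequent with Fcer1g, at 75.0%, 65.4% and 71.2% against 42.9%, 47.7% and 52.5%, as were those of Cd7, at 85.7%, 75.0% and 81.2% against 75.3%, 48.6% and 59.6%. Klra6 followed, at 72.6%, 51.9% and 58.5% against 54.5%, 27.9% and 43.6%. Gzmb did not keep 1 direction, at 36.9%, 23.1% and 20.5% against 37.7%, 25.2% and 14.97%. In comparison cells too, Cd8b1 was less frequent with Fcer1g, at 71.4%, 75.0% and 63.8% against 97.0%, 91.1% and 86.9%. Cells of higher Klra7 had less Cd8b1 as well: it was found in 57.9%, 78.6% and 58.8% of cells with 5 to 19 Klra7 reads and in 38.6%, 47.8% and 47.1% of cells with 100 or more. These splits are descriptions of cells from 3 mice.

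Cells in clones of 1 cell were also compared with each other, which removed the expanded comparison clones; the setting was chosen after seeing the data. Of 470 genes tested, 2 were then higher and 6 lower with edgeR. Fcer1g was higher, by 3.79 on the log2 scale (SE 0.30, edgeR adjusted p = 0.0036, with 2.3e-10 to 0.43 over its 20 settings), and was found in 53.2%, 35.6% and 43.0% of Ly49+ cells against 6.51%, 3.31% and 2.28%. Cd8b1 was lower, with a log2 difference of -2.07 (edgeR adjusted p = 0.019, with 1.3e-11 to 0.21 over its settings) and reads in 42.4%, 49.2% and 49.8% against 91.6%, 85.1% and 85.6%. Ccr7 was lower too, with a log2 difference of -1.59 (edgeR adjusted p = 0.030, with 0.027 to 0.997 over its settings) and reads in 51.9%, 51.5% and 59.4% against 75.9%, 77.4% and 92.5%. Gzmb was lower at -1.32 (edgeR adjusted p = 0.019), a smaller difference than the -2.22 of all cells. Its reads were found in 37.3%, 18.2% and 16.6% of Ly49+ cells against 45.4%, 24.5% and 15.8%, so the share was not lower in the tag 2 mouse. Ctla4 was lower at -1.94 (edgeR adjusted p = 0.019, with 1.7e-08 to 0.32 over its settings). The other calls were Cd36, a lipid receptor, which was higher, and Ccr9 and Lag3, which were lower. These 3 are named after their values were seen. Ccr9 was near the floor, at a mean of 0.034 CPM against 18.6 over cells of all clone sizes. Lag3 reads were found in 16.5%, 8.33% and 9.40% of Ly49+ cells against 28.5%, 12.7% and 9.10%, so its share was not lower in the tag 2 mouse. Tcf7 and Il7r, higher in the Ly49+ cells of 2 mice above, had log2 differences of -0.21 and -0.12 here. Tcf7 reads were found in 96.2%, 87.1% and 91.8% of Ly49+ cells against 87.9%, 86.5% and 87.6%. Eomes reads were found in 38.6%, 35.6% and 42.4% against 23.4%, 29.5% and 13.9% (edgeR adjusted p = 0.064, with a highest value of 0.93 over its settings), which did not pass.

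**Figure D5:**
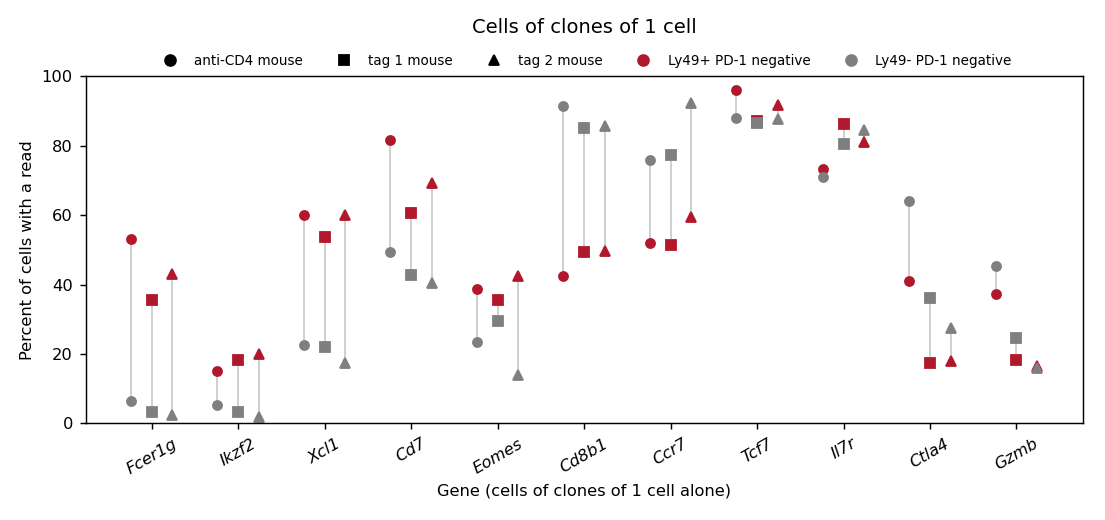
Percent of cells with a read of 11 genes among cells of clones of 1 cell, Ly49+ (red) and comparison (grey), with a symbol for each mouse joined between the classes. Fcer1g, Ikzf2, Xcl1, Cd7 and Eomes lie higher and Cd8b1, Ccr7 and Ctla4 lower in the Ly49+ cells of 3 mice, while Tcf7 and Il7r lie close together.

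Cells with at least 5 Klra7 reads and a Pdcd1 read (70, 54 and 127 cells) shared part of this pattern. Of them 38.6%, 27.8% and 32.3% had an Fcer1g read and 14.3%, 27.8% and 28.3% an Ikzf2 read, against 52.2%, 31.9% and 42.2% and 15.5%, 17.2% and 19.9% of the Ly49+ PD-1 negative cells. Cd8b1 reads were more frequent in them, at 65.7%, 92.6% and 71.7%, and so were Gzmb reads, at 70%, 53.7% and 34.6%. Mki67 reads were found in 18.6%, 16.7% and 16.5%. Clones of 1 cell held 57.1%, 35.2% and 65.4% of these cells, fewer than of the PD-1 negative ones in each mouse. Their median depth was 15601, 36170 and 24731 reads per cell, above that of the PD-1 negative Ly49+ cells, and its part in these shares was not tested.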

How the data were processed

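The tools named in the submitters' processing notes are cutadapt 3.2 and 3.4, Bowtie2 2.4.2 and R 3.6.3, with the build GRCm38; the sources used here give neither their order nor the receptor caller. The authors deposited a count for each cell and panel gene, read as sequencing reads because no cell held fewer than 4360, and estimated counts of the leading chain of each receptor. They also deposited the fraction each chain takes of its type's reads, and for the nodes a count and fraction per clone. The 2124 genes in both matrices were used, cells with no beta chain were not compared, and 10 cells of the Pmel-1 clone under tumour tags were left out. A total of 382 cell numbers occur in both cartridges and 21 Ly49+ cells carry one of them; cells were matched within a cartridge.

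A clone is 1 V gene, CDR3 nucleotide sequence and J gene of the beta chain. Reads were summed over the cells of each class and mouse (6 sums of 2039768 to 83197843 reads) and fitted with edgeR 4.0.16 (TMM, filterByExpr with a minimum count of 10, mouse as a block), with adjustment over all genes tested. CPM are these counts scaled to each TMM-adjusted total. The edgeR step was run on simulated sums drawn from a single mean profile, without differences between mice. That run checks the code alone and does not give the error rate in these data. Alternatives used DESeq2 1.42.0 and limma 3.58.1, and shares used exact 95% intervals. The classes share each animal, so the pairing comes from the mouse. Members, gene lists and tests were chosen with earlier results of these data known. Genes named were drawn from those past the test with 1 sign in 3 mice and at least 50 CPM in the higher class, filled to 10 in each direction by smallest p, up to 4 genes of highest level in each list, and a fixed set of genes; not every gene so chosen is described, and 1 is not reported here. Neutrophil markers were not tested; 3 were in the tables and all were at 0 in the Ly49+ cells. p-values measure the spread between 3 mice.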

Additional observations from a re-analysis of the deposited data

Results flagged for a closer look

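Cells left out for want of a beta chain also met the rule. In the tag 1 mouse 3.24% (54 of 1667) and in the tag 2 mouse 3.68% (93 of 2530) of such cells had at least 5 Klra7 reads and no Pdcd1 read, above the 2.33% of Pmel-1 cells. In the anti-CD4 mouse the share was 1.30% (17 of 1311). These cells entered no comparison.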

How the results depend on the processing

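Gene counts past the adjusted p threshold moved most with the processing. Against 0 higher and 1 lower, DESeq2 called 13 and 57, no low-count filter 7 and 111, no Pdcd1 condition 2 and 13, thinning to 4000 reads 3 and 5, and classes taken from thinned reads 1 and 5. Without cells holding a Lyz2 or Cd79a read the counts were 3 and 14, and in clones of 1 cell alone 2 and 6. The setting of clones of 1 cell was chosen after seeing the data. Those without Trdc cells and with tag 5 or tag 6 alone were not planned beforehand either. limma on mean log values called 5 and 1, and no replicate block called 0 and 0, as did 1 cell per clone, Klra7 at 1 read or more, no Trdc cells and tag 5 alone. Leaving out a mouse gave 0 to 9 higher and 0 to 41 lower. For each setting the change of each gene's log2 difference from the main setting was taken. The median of these changes exceeded 0.1 in size with no filter (-0.45), without Lyz2 or Cd79a cells (-0.20) and without the tag 2 mouse (-0.19). It also did so with a mean of at least 10 CPM (0.11) and with limma (0.31). Without the Pdcd1 condition it was -0.099, and the median log2 difference itself was -0.31 against -0.13. The node difference was -4.40 points without clones of 1 cell and -53.8 to -24.5 leaving out a mouse; the difference in clones of 1 cell was 30.8 to 60.1. Signs turned in clones of 1 cell for Il7r (-0.12), Tcf7 (-0.21) and Cd69 (-0.10), and with 1 cell per clone for Tcf7 (-0.017). Without the Pdcd1 condition they turned for Cd160 (-0.075), Tnfrsf18 (-0.14) and Lef1 (0.62), and with no filter for Tnfrsf1b (-0.057), Tnfrsf18 (-0.20), Cd69 (-0.038) and Cd44 (-0.054). Lef1 was above 0 with tag 6 alone (0.12), limma (0.18), classes from thinned reads (0.15) and without the tag 2 mouse (0.19), where Cd44 was -0.044. The causes were not tested. With 3 mice the exact tests cannot pass, and no cell fell under the thinning depth.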
